A study of Mus musculus with 8 samples.

Results

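Sap30bp encodes a protein that binds Sap30, a subunit of the Sin3 corepressor complex, and it was examined here together with 9 genes of that complex, namely Sap30, Sap30l, Sin3a, Sin3b, Sap18, Sap130, Suds3, Arid4a and Arid4b. The members were the rows of the deposited gene table whose gene symbol equals 1 of these 10 names, which gave 10 of 25574 genes. Of these, 9 had a mean FPKM (fragments per kilobase of gene length, scaled to the size of the library) above 0.1 in at least 1 dataset and were tested, and Arid4b did not reach this level. Oocytes at the germinal vesicle stage were taken from CD1 mice of 8 weeks, 46 h after injection of 5 IU of pregnant mare serum gonadotropin. They were cultured for 180 min without the inhibitor that holds them at that stage. Oocytes that had undergone nuclear envelope breakdown (NEBD) were selected during this culture. At its end the selected oocytes were treated with 0.1 mg/ml cycloheximide for 10 min, an agent that keeps ribosomes on the mRNA. Lysates of 200 oocytes were separated in sucrose gradients into 10 fractions, of which the lighter fractions 2 to 5 gave the non-polysomal (NP) RNA and the heavier fractions 6 to 10 the polysomal (P) RNA. Per the study, NP covers the peaks of the ribosomal subunits and of single ribosomes, so NP RNA is not free of ribosomes. Fraction 1 was left out. The study could neither establish nor exclude that heavy stored RNA-protein particles sedimented with the polysomes, so P RNA need not all be translated. Each dataset holds 4 libraries, and NP and P were pooled from fractions of the same 4 replicate profiles. Both datasets share the strain, age, stage and treatment. It is not stated which NP and P library came from one profile, so the main tests treat the libraries as unpaired. Oocytes were pooled, so that a transcript present in fewer oocytes and a transcript present at less RNA per oocyte cannot be told apart. FPKM values are relative to their own library and do not measure the amount of mRNA in either pool.

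Sin3 complexes repress transcription by bringing histone deacetylases to chromatin. Sin3a or Sin3b forms the scaffold, Suds3, Sap30 or Sap30l, Sap130 and Arid4a or Arid4b join it, and Sap18 belongs both to this complex and to splicing-associated complexes. Sap30bp has been linked to transcriptional repression and to pre-mRNA splicing. The fully grown oocyte is transcriptionally silent, and it passes through meiosis on stored mRNAs that are translated, kept dormant or degraded at set times. The question addressed was which transcripts of this group were relatively higher in the P fractions and which in the NP fractions at NEBD.

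Sap30bp was the only one of the 9 tested members whose 4 NP libraries all lay above its 4 P libraries, with a mean of 223 ± 110.1 FPKM in NP and 34.5 ± 6.54 FPKM in P (SD, n = 4 each). The same complete separation was seen for 5.92% of the 14292 genes tested. No member had its P libraries all above its NP libraries, against 0.357% of the genes tested. With limma on log2(FPKM + 1) and Benjamini-Hochberg adjustment over all genes tested, 0 of the 9 members passed an adjusted p of 0.1, a threshold that 0.021% of the genes passed, all of them lower in P, whereas voom on recovered reads called 1 member, Sap30bp, beside 1.71% of the 6298 genes with annotated lengths and 1.75% of the 14291 genes with searched lengths added. At an unadjusted p under 0.05, Sap30bp and Sap30l were lower in P, 2 of 9 members against 9.47% of all genes tested. Sap30bp alone among the members had a mean FPKM more than 2-fold higher in NP, which held for 40.6% of the genes tested. The log2 fold change of P over NP was negative for 8 of the 9 members, for 6 of 9 after quantile normalization, and for only Sap30bp and Sap30l when each library was centred on its median. The members' median log2 fold change was −0.35, and the median of all genes tested was −0.39. Centring moved the median of all genes to 0.57 and quantile normalization moved it to −0.02, so fold changes near −0.39 mark genes that lie where most genes do. Relative to the median of all genes, 4 members lay lower, namely Sap30bp, Sap30l, Suds3 and Sap130 (at −0.0035), and 5 lay higher. Over the main fit and its alternatives, this distance stayed negative for Sap30bp (−2.52 to −1.55) and Sap30l (−3.23 to −1.02). It took both signs for Suds3 (−0.64 to 0.37) and Sap130 (−0.55 to 0.50). Of the 5 that lay higher, only Sap30 did so in each fit (0.12 to 1.28).

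**Figure D1:**
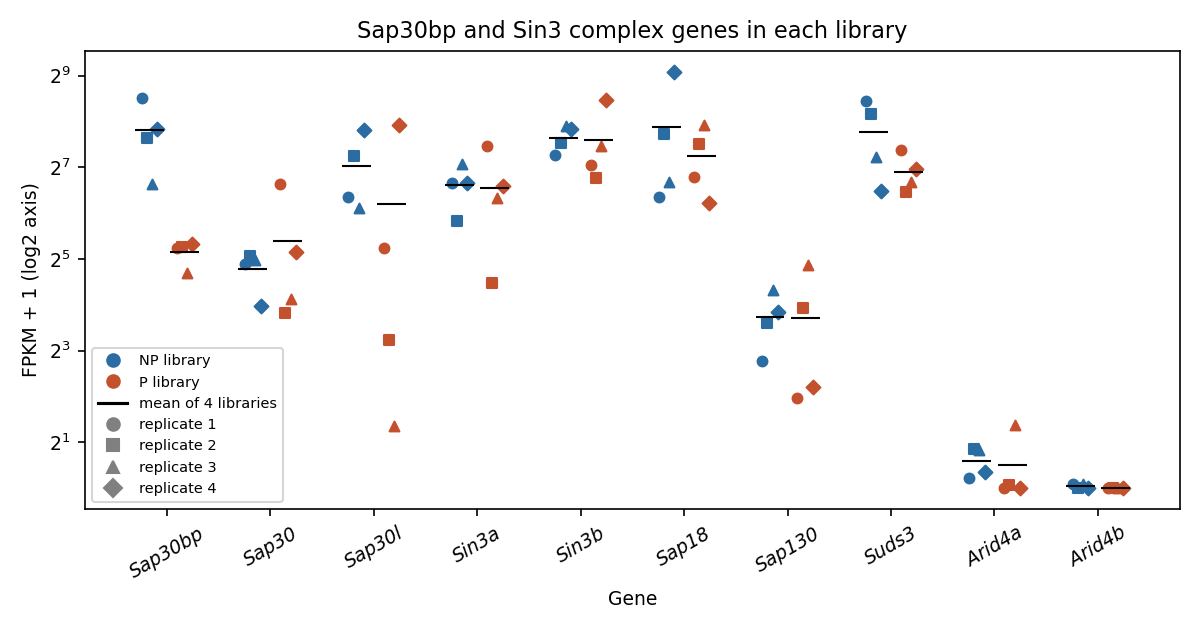
FPKM + 1 on a log2 axis for the 10 genes in each of the 8 libraries, with NP libraries in blue, P libraries in red, the marker shape giving the replicate number and the bar giving the mean of 4 libraries. The blue and red points are fully separated for Sap30bp, from 99.1 to 366 FPKM in NP and from 24.8 to 39.1 FPKM in P, and they overlap for each of the other genes, with Arid4a and Arid4b close to 0.

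The libraries differed in depth. The number of reads to which each library had been scaled, recovered from the steps between its FPKM values, was 1299377 to 7594637 in NP and 2677946 to 4699328 in P, and 1 step is called a read below. The 8 oocyte marker genes, among them Zp3 and Gdf9, were above 0 in each library, with a summed level of 5292 to 10912 FPKM in NP and 7427 to 30332 FPKM in P. Of 10 granulosa and cumulus cell markers, Foxl2, Amhr2, Inhba, Has2 and Ptx3 were at 0 throughout. Cyp19a1 was above 0 in each library, at 6.07 to 75.2 FPKM in NP and 0.190 to 62.6 FPKM in P. The summed level of the 10 markers was 6.07 to 75.4 FPKM in NP and 1.61 to 62.6 FPKM in P. Of 4 markers of other ovarian and blood cells in the table, Col1a1 and Ptprc were at 0. Pecam1 was above 0 in each library, at 10.9 to 63.5 FPKM in NP and 6.36 to 77.7 FPKM in P. The summed level of the 4 markers was 12.5 to 63.5 FPKM in NP and 6.36 to 77.7 FPKM in P. The ranges of both groups of markers overlapped between the datasets.

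Sap30bp lies at chr11:115933282-115966725 on the plus strand (GRCm38), and its transcript Sap30bp-203 has 11 exons, a coding sequence of 927 bases for 308 residues and a 3′ untranslated region of 2333 bases. The study measured it by qRT-PCR with a primer pair that its primer list names Sap30 but describes as the Sap30 binding protein. The pair is shown because the name and the gene differ. Both primers matched Sap30bp exactly and Sap30 not at all. They enclose 155 bases of coding sequence, from base 856 to base 1010 of the transcript. The forward primer lies in exon 6 (chr11:115960565-115960584), and the reverse primer spans the junction of exons 8 and 9, with its 15 bases from exon 9 in capitals.
Sap30bp forward primer: gaggaagaaggagttccgca
Sap30bp reverse primer: TCTTCTGGGCCTTGGctaat

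In NP1 to NP4, Sap30bp had 366, 199, 99.1 and 227 FPKM, from 4332, 959, 2675 and 6405 reads. In P1 to P4 it had 37.0, 37.3, 24.8 and 39.1 FPKM, from 644, 443, 409 and 388 reads. The P libraries lay close together, with a coefficient of variation of 19.0%, whereas the NP libraries spread over 49.4%, and the lowest NP library was still above the highest P library. The mean was 6.46-fold higher in NP. On the log2 scale this was a fold change of −2.53 (SE 0.57, 95% confidence interval −3.76 to −1.30), with an unadjusted p of 0.000596 and an adjusted p of 0.344 in limma, which misses the threshold. By p the gene ranked 21 of the 14292 genes tested. With voom on the recovered reads the log2 fold change was −2.50 in both sets of lengths, and the adjusted p of 0.0868 (6298 genes) and 0.0882 (14291 genes) passed the threshold. The median of all genes was also lower in these voom fits, at −0.95 and −0.89, against −0.39 in the main limma fit. Relative to that median Sap30bp lay at −1.55 and −1.61 in voom and at −2.14 in the main fit. Over the main fit and its 16 alternatives the adjusted p ranged from 0.0868 to 0.731. The fold change ranged from −2.87 to −1.57, and the weakest value, obtained with median centring, was also the only one at which the NP and P libraries overlapped. The study selected Sap30bp for qRT-PCR from its own list of differing transcripts in these libraries, so its direction here is not independent evidence. By qRT-PCR in additional biological replicates, the study reports the same direction for Sap30bp, at a weaker enrichment than in its RNA-seq.

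Sap30bp also differed in its place within the group. It was the gene with the 1st, 3rd, 5th and 2nd highest FPKM of the 10 in NP1 to NP4, and the 7th, 4th, 6th and 6th highest in P1 to P4. Its share of the members' summed FPKM was 31.5%, 17.6%, 11.8% and 15.9% in NP1 to NP4 and 4.89%, 7.92%, 3.70% and 4.05% in P1 to P4. Each NP share was thus above each P share. On the log2 scale, its level minus the mean of the other 8 tested members was 2.03 ± 0.88 in NP and 0.05 ± 0.46 in P (SD, n = 4 each), a difference of −1.98 that centring of the libraries leaves as it is and that is given without a test. Among all genes tested, its mean level lay at percentile 96.8 in NP and 82.7 in P, so it remained an abundant transcript in the P dataset. The exons of Sap30bp overlap those of Recql5, a DNA helicase gene on the opposite strand, over 196 bases or 5.29% of their length, and the library kit does not mark strand. Recql5 had 26.1 ± 5.62 FPKM in NP and 40.7 ± 16.0 FPKM in P (SD, n = 4 each), a log2 fold change of 0.56 (adjusted p = 0.713, limma), with the sign opposite to that of Sap30bp. Overlaps with genes on the opposite strand were also annotated for exons of Sin3a (205 bases or 3.81%, Man2c1os), Sap18 (78 bases or 1.43%, Ska3) and Arid4b (257 bases or 1.51%, Ggps1), where reads of both genes cannot be told apart.

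Over the 8 libraries, the genes with the level pattern most like that of Sap30bp, out of 6414 genes with a mean FPKM above 10 in a dataset, were Nle1, Upp1, Gsk3a, Smyd2 and Rps9. Nle1 encodes a ribosome biogenesis factor, Upp1 a uridine phosphorylase, Gsk3a a protein kinase, Smyd2 a lysine methyltransferase and Rps9 a protein of the small ribosomal subunit. Pearson's r on log2(FPKM + 1) was 0.984, 0.973, 0.971, 0.958 and 0.957, respectively, values that include the NP to P difference itself and the libraries the genes share. All 5 genes had a lower mean in P, for instance Upp1 with 794 FPKM in NP and 90.7 FPKM in P. Among the members, r with Sap30bp was 0.626 for Sap30l and 0.604 for Suds3. It was 0.141 for Sap18, 0.131 for Sin3a, 0.083 for Sin3b, −0.035 for Sap130 and −0.095 for Sap30, the protein partner after which Sap30bp is named.

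Sap30 and Sap30l are paralogs that occupy the same position in the complex. Sap30 (chr8:57482707-57487860, minus strand) had 28.7, 32.7, 30.7 and 14.6 FPKM in NP1 to NP4 and 98.4, 13.2, 16.6 and 34.6 FPKM in P1 to P4. P1 was the highest of all 8 libraries and P2 the lowest, so that the NP values lay within the range of the P values. The means were 26.7 ± 8.18 FPKM in NP and 40.7 ± 39.6 FPKM in P (SD, n = 4 each), with a log2 fold change of 0.21 (SE 0.73, 95% confidence interval −1.35 to 1.77, adjusted p = 0.907, limma). Without P1 the fold change was −0.36, and without NP4 it was −0.04. Sap30 was nevertheless the only tested member whose mean was higher in P.

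Sap30l (chr11:57801637-57810217, plus strand) had 80.8, 149.8, 67.8 and 222 FPKM in NP1 to NP4 and 37.0, 8.40, 1.56 and 242 FPKM in P1 to P4. The P1, P2 and P3 libraries lay below the lowest NP library, and P4 lay above the highest one. The P3 value rests on 8 reads and the P4 value on 746, a 155-fold difference in FPKM within 1 dataset and the widest spread of a member detected in all 8 libraries. Sap30l had a log2 fold change of −2.43 (SE 1.10, 95% confidence interval −4.79 to −0.08, adjusted p = 0.493, limma). The value was −3.60 without P4, −2.03 without P2 and −1.41 without P3, and of the 8 fits that left out 1 library only those without P1 or P4 kept the unadjusted p under 0.05. Among the alternatives that kept all libraries, the unadjusted p in limma ran from 0.0087 with the replicate block to 0.207 with median centring. Over all fits the adjusted p was 0.308 to 0.731, so none passed the threshold. The difference between the paralogs, Sap30l minus Sap30 on the log2 scale, was 2.14 ± 1.21 in NP and −0.50 ± 2.36 in P (SD, n = 4 each). This change of −2.64 did not pass an exact permutation test over 70 assignments (2-sided p = 0.114, adjusted p = 0.343 over 3 paralog pairs). The test does not use the replicate numbers, since it is not stated whether same-numbered NP and P libraries came from one gradient. Within the numbers 1 to 4 the change was −2.85, −2.76, −3.90 and −1.06, negative in 4 of 4, with an exact sign-flip permutation p of 0.125, the smallest that 4 pairs allow. Without P4 the unpaired change was −3.73 with the smallest p that the 35 remaining assignments allow (exact permutation p = 0.029, unadjusted). Leaving out any other library gave an unadjusted exact permutation p from 0.114 (without NP3) to 0.229 (without P1 or P3).

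The scaffold genes had means of 97.2 ± 31.8 FPKM in NP and 93.1 ± 63.7 FPKM in P for Sin3a, and of 199.8 ± 39.7 FPKM in NP and 192 ± 111 FPKM in P for Sin3b (SD, n = 4 each). Sin3a (chr9:57072040-57128366, plus strand) had 99.3, 56.0, 134 and 99.6 FPKM in NP1 to NP4 and 176, 21.2, 79.7 and 96.0 FPKM in P1 to P4. Sin3b (chr8:72723288-72758203, plus strand) had 152, 183, 238 and 226 FPKM in NP1 to NP4 and 131, 109, 176 and 354 FPKM in P1 to P4. For both genes the highest and the lowest of the 8 values were P libraries. The log2 fold change was −0.33 for Sin3a (95% confidence interval −1.78 to 1.11, adjusted p = 0.835, limma) and −0.19 for Sin3b (95% confidence interval −1.36 to 0.99, adjusted p = 0.891, limma), intervals that allow a 2-fold difference in either direction for Sin3a and a 2-fold lower level in P for Sin3b. Without P2 the fold changes turned to 0.25 and 0.03. Sin3b was the more abundant paralog in 7 of the 8 libraries, P1 being the exception. Sin3a minus Sin3b was −1.08 ± 0.47 in NP and −1.22 ± 1.20 in P on the log2 scale (SD, n = 4 each), and the change of −0.15 did not pass the exact permutation test (p = 0.83, adjusted p = 0.83 over 3 pairs).

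Sap18 (chr14:57798180-57804980, plus strand), which also takes part in the ASAP and PSAP splicing complexes, cannot be read without its copy. The gene Gm10094 on chromosome 8, annotated as Sap18b, holds the whole coding sequence of Sap18, 519 bases with 0 differences, and the identity extends over 252 bases after the stop codon. The first 60 coding bases are shown, with the start codon in capitals, because reads from them fit both loci, chr14:57798226-57798285 in exon 1 of Sap18 and chr8:95825364-95825423 in Gm10094, both on the plus strand.
Sap18: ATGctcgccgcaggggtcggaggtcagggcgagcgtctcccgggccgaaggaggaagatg
Gm10094: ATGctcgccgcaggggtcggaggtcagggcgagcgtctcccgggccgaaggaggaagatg

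Sap18 had 80.5, 210.1, 102 and 543 FPKM in NP1 to NP4 and 109, 181, 241 and 73.1 FPKM in P1 to P4. Gm10094 had 85.1, 256, 131 and 612 FPKM in NP1 to NP4 and 122, 123, 326 and 98.6 FPKM in P1 to P4. NP4 was the highest library for both genes, and both datasets overlapped. The log2 fold change was −0.35 for Sap18 (95% confidence interval −1.81 to 1.10, adjusted p = 0.826, limma) and −0.46 for Gm10094 (SE 0.68, adjusted p = 0.779, limma). Without NP4 the value for Sap18 was 0.19. Pearson's r of both genes was 0.947 over the 8 libraries. The sources used here do not say how reads mapping to several places were counted, so the level of Sap18 and the split between both loci are uncertain.

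**Figure D2:**
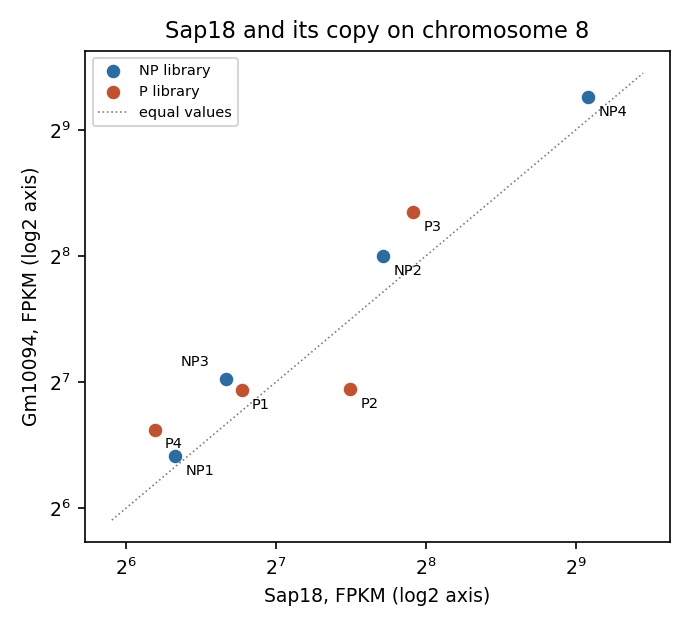
FPKM of Gm10094 against FPKM of Sap18 in each of the 8 libraries, both on log2 axes, with NP libraries in blue, P libraries in red and a dotted line at equal values. P2 is the only point below the dotted line, and the others lie above it, with Gm10094 higher than Sap18. P4 is lowest for Sap18 at 73.1 FPKM, NP1 is lowest for Gm10094 at 85.1 FPKM and NP4 is highest for both at 543 and 612 FPKM.

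Suds3 (chr5:117091682-117115993, minus strand), which encodes a core subunit that joins Sin3 to the deacetylases, had 347, 287, 149 and 88.2 FPKM in NP1 to NP4 and 165, 86.8, 102 and 123 FPKM in P1 to P4. NP1 and NP2 were the highest libraries, while NP3 and NP4 lay among the P values. The means were 218 ± 119.9 FPKM in NP and 119 ± 34.0 FPKM in P (SD, n = 4 each), with a log2 fold change of −0.71 (SE 0.58, 95% confidence interval −1.97 to 0.54, adjusted p = 0.657, limma). This value was −0.43 without NP1 and −1.08 without NP4. Sap130 (chr18:31634371-31723061, plus strand) was the lowest of the clearly detected genes in most libraries, with 5.88, 11.2, 18.9 and 13.3 FPKM in NP1 to NP4 and 2.94, 14.2, 28.1 and 3.60 FPKM in P1 to P4. Its means of 12.3 ± 5.39 FPKM and 12.2 ± 11.8 FPKM were nearly equal (SD, n = 4 each), and its log2 fold change was −0.39 (SE 0.85, 95% confidence interval −2.21 to 1.42, adjusted p = 0.847, limma). The lowest and the highest of the 8 values of Sap130 were both P libraries.

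Arid4a and Arid4b, paralogs that encode large chromatin-binding subunits, were barely detected. Arid4a (chr12:71015990-71098592, plus strand) was listed at 0.167, 0.822, 0.783 and 0.281 FPKM in NP1 to NP4 and at 0, 0.0556, 1.603 and 0 FPKM in P1 to P4. These values stand for 3, 6, 32 and 12 reads in NP and 0, 1, 40 and 0 reads in P, so that P3 alone carried nearly all P reads. Arid4a had a log2 fold change of −0.21 (SE 0.39, adjusted p = 0.824, limma). At so low a level the value depends on the scale, being −1.24 with a pseudocount of 0.1 and −2.32 and −2.35 in voom with annotated and with searched lengths, none past the threshold. It was −0.54 without P3 and −0.08 without P1, and without P3 the NP and P libraries no longer overlapped, NP being higher. The share of all genes without overlap was not counted for that fit. Arid4b (chr13:14063232-14199603, plus strand) was listed at 0.0686 FPKM in NP1 and 0.0602 FPKM in NP3, and at 0 in the other 6 libraries. The smallest gene length that makes these values whole gives 1 and 2 reads, and a longer fitting length would give more. At that smallest length its 3 reads in NP do not exceed the 3 counts that a count of 0 allows over a dataset. No fold is given, and Arid4b was not tested for a difference between NP and P. Arid4a minus Arid4b was the third of the 3 paralog pairs, and its test is not given because Arid4b lacks the reads for it.

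Ordered by mean FPKM, the genes in NP ran Sap18, Sap30bp, Suds3, Sin3b, Sap30l, Sin3a, Sap30, Sap130, Arid4a and Arid4b. In P the order was Sin3b, Sap18, Suds3, Sin3a, Sap30l, Sap30, Sap30bp, Sap130, Arid4a and Arid4b. The first 4 genes in NP, with means of 234 ± 214, 223 ± 110.1, 218 ± 119.9 and 199.8 ± 39.7 FPKM (SD, n = 4 each), lay within each other's spread. So did Sap30l and Sin3a in NP, at 130.2 ± 71.2 and 97.2 ± 31.8 FPKM, whereas Sin3a lay above Sap30 in each NP library. In P, neighbours in the order from Sin3b (192 ± 111 FPKM) to Sap30bp (34.5 ± 6.54 FPKM) lay within each other's SD, with the widest spread for Sap30l (72.2 ± 114 FPKM). Arid4a and Arid4b lay below the other 8 genes in each NP library. Sap18, Suds3, Sin3b, Sin3a and Sap30l, 5 of the 10 genes, had a mean above 50 FPKM in both datasets. Levels of different genes also rest on the gene length used. The length that made the FPKM steps whole was equal to the merged exons of the annotation for Sap30bp (3708 bases), Sap30, Sap30l, Sin3a and Arid4a, and it was shorter for Sin3b (4298 against 7354 bases), Sap18 (3781 against 5439), Sap130 (4050 against 9084) and Suds3 (2418 against 11321). Ratios of P to NP of a gene do not depend on this length.

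In maturing oocytes, cytoplasmic polyadenylation elements near the 3′ end of an mRNA are known to regulate its poly(A) tail and translation. The last 100 bases of a chosen annotated transcript per gene were searched on the RNA strand for TTTTAT and TTTTAAT. These motifs share their first bases but cannot start at the same position. Other annotated 3′ ends were not searched. The transcript of Suds3 holds 2425 bases against 11321 in its merged exons, and that of Sap130 holds 4015 against 9084. The windows of Sap18 and Suds3 held neither AATAAA nor ATTAAA, the signals for poly(A) addition, whereas 81.3% of the genes with such a window did. Whether these annotated ends are used in oocytes was not tested, so a missing match says little there. Of the 9 tested members, Sap30 and Arid4a held a match to TTTTAT or TTTTAAT, against 19.4% of the 10992 genes with such a window. The matches, in capitals, are shown with the bases around them because they are the sites of this kind found in the group, at chr8:57482777-57482806 on the minus strand in exon 4 of 4 of Sap30 and at chr12:71098548-71098577 on the plus strand in exon 24 of 24 of Arid4a.
Sap30: tTTTTAATgttgttgtcatttttgattcta
Arid4a: TTTTATgtattttttaaaatattaataaaa

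The match in Sap30 starts 99 bases before the end of the transcript, at the edge of the window, and that in Arid4a starts 45 bases before the end. Neither TTTTAT nor TTTTAAT was found in this window of Sap30bp. Sap30, the member with a match and a level above 1 FPKM, had the log2 fold change of 0.21 given above, with an interval that includes 0.

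The known partners of the complex were counted as a list of 20 genes, with deacetylases, histone-binding proteins, Ing proteins, Fox and Mad family factors. All 20 were tested in limma and in voom with searched lengths, and 9 of them in voom with annotated lengths. In each of these fits 0 passed the adjusted threshold. Max alone, which encodes the partner of Mad family repressors, had an unadjusted p under 0.05, at 181 ± 126 FPKM in NP and 57.1 ± 52.1 FPKM in P (SD, n = 4 each, log2 fold change −2.20, SE 0.96, adjusted p = 0.479). No gene of the list had separate NP and P libraries, and the median was −0.25 beside −0.39 for all genes tested. The fold change was below that median for 9 genes and above it for 11, and it was negative for 15 genes, for 9 after quantile normalization and for 5 with median centring. Besides Max, the most abundant genes by the NP mean were Rbbp7, a histone chaperone, with 347 ± 75.4 FPKM in NP and 385 ± 120.5 FPKM in P, and Phf12, a zinc finger subunit, with 141 ± 50.7 and 76.8 ± 37.8 FPKM (SD, n = 4 each). The log2 fold change was 0.13 for Rbbp7 (SE 0.50, adjusted p = 0.920) and −1.0 for Phf12 (SE 0.62, adjusted p = 0.587). By the P mean, Ogt, which encodes a glycosyltransferase, came after Rbbp7, with 70.1 ± 29.5 FPKM in NP and 129.6 ± 68.3 FPKM in P (SD, n = 4 each, log2 fold change 0.79, SE 0.63, adjusted p = 0.651, limma). The deacetylase genes themselves, Hdac1 and Hdac2, which like Ogt were named after their values were seen, were low, with means of 0.866 and 2.70 FPKM in NP and 0.278 and 3.78 FPKM in P.

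A second list held 19 genes of other corepressors, the NuRD, CoREST and NCoR complexes. Of these, 17 were tested in limma and in voom with searched lengths (Chd3 and Tbl1x were not), and 10 in voom with annotated lengths. In each of these fits 0 passed the adjusted threshold, and in limma 0 had an unadjusted p under 0.05. Gatad2a, a NuRD subunit, was the only gene whose NP libraries all exceeded its P libraries, 1 of 17 against 5.92% of all genes tested, at 53.4 ± 21.8 FPKM in NP and 23.3 ± 3.06 FPKM in P (SD, n = 4 each, log2 fold change −1.08, SE 0.59, adjusted p = 0.538). The median was −0.64, with 12 genes below and 5 above the median of all genes, and the sign was negative for 14 genes, for 9 after quantile normalization and for 8 with median centring. The third list held 8 splicing factors related to Sap18 or Sap30bp, all tested in limma and in voom with searched lengths. Voom with annotated lengths included 0 of them. None passed the adjusted threshold in the fits that tested them. In limma none had an unadjusted p under 0.05, and none had separate libraries. The median was −0.48, with 4 genes below and 4 above the median of all genes, and 6 values were negative, 4 after quantile normalization and 1 with median centring. Its most abundant genes were Puf60 (210 ± 133 FPKM in NP and 254 ± 152 FPKM in P), Sf3b1 (95 ± 69.3 and 63.8 ± 47.3 FPKM) and U2af2 (71.0 ± 28.6 and 55.9 ± 48.8 FPKM, SD, n = 4 each), with log2 fold changes of 0.16, −0.60 and −0.65.

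**Figure D3:**
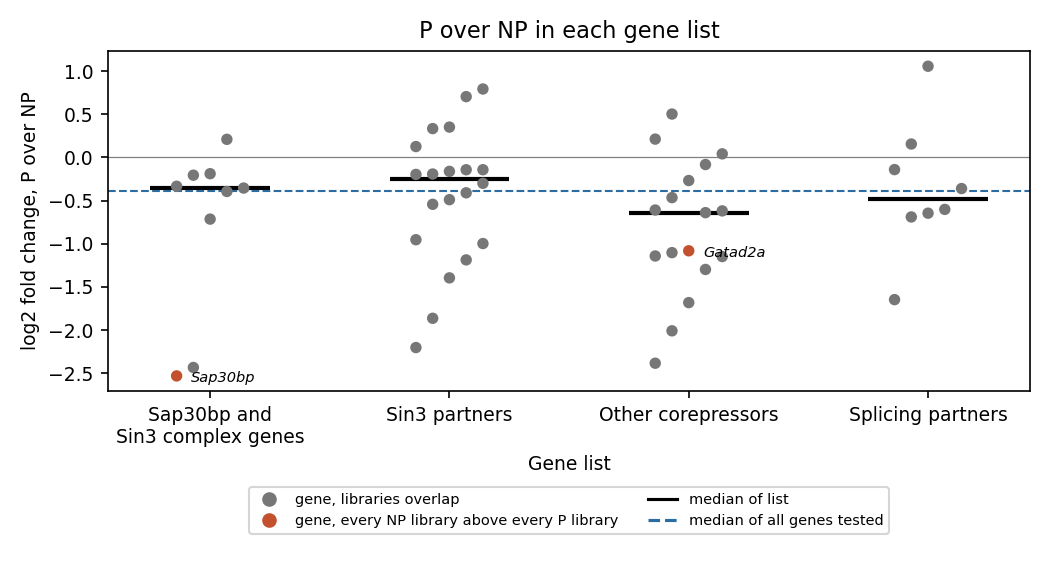
Log2 fold change of P over NP for each tested gene of the members and of the 3 lists, with a bar at the median of each list and a dashed line at the median of all genes tested (−0.39). The list medians of −0.35, −0.25, −0.64 and −0.48 lie on both sides of the dashed line and all turn positive with median centring, and Sap30bp at −2.53 and Gatad2a at −1.08 are the 2 red points, genes whose NP libraries all exceeded their P libraries, as did those of 5.92% of all genes tested.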

How the data were processed

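Reads had been trimmed by the authors (Trim Galore 0.4.1), checked (FastQC 0.11.5), aligned to the mouse assembly GRCm38 (Hisat2 2.0.5) and summarised per gene in Seqmonk. RNA had been depleted of ribosomal RNA, reverse transcribed with random and oligo(dT) primers and amplified before Nextera libraries were made. The deposited table holds FPKM values of 25574 genes in 8 libraries, computed by the authors on a linear scale. A pair of further deposited tables, with the authors' mean FPKM and ratios of expressed genes and with their DESeq2 fold changes, p-values and FDR, were not used.

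P was compared with NP by a 2-sided test in limma 3.58.1 (R 4.3.3), using lmFit and the trend option of eBayes on values of log2(FPKM + 1). The 14292 genes whose mean exceeded 0.1 FPKM in NP, P or both entered the fit. P-values were adjusted by Benjamini-Hochberg over these genes with a threshold of 0.1, and fold changes on this scale understate the change of low genes. Paralog differences were tested by exact permutation over 70 assignments. Replicates were biological replicates per the study's methods. The members and gene lists were chosen with earlier results of these data known. All members were named. Of each list, genes without overlap between NP and P were named or, if there were none, the 3 most abundant.

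FPKM values are not counts, so reads were recovered from their steps. With the annotated exon length, values of 6974 genes were whole within 0.01 of a read, and with a length searched between 100 and 30000 bases those of 8610 more, in all 15584 of the 15585 genes above 0. The smallest fitting length was taken, so reads with a searched length are the fewest that fit the values. A step may stand for a single read or for a fragment pair. Since cDNA was amplified and molecules were not tagged, reads are not independent molecules, and intervals from them would cover counting error only. Voom in limma was run on these reads. Other alternatives were a pseudocount of 0.1, no filter, a minimum mean of 1 FPKM, quantile normalization, median centring, a replicate block and leaving out each library. Voom with searched lengths, and the alternatives for the paralog differences (the test within replicate numbers included), were added after the data had been seen. The fitting was tested on simulated data. Gene models came from GENCODE vM21 and sequences from RefSeq GRCm38, and coding copies were sought with blastn 2.17.0. Python 3.11.15, numpy 2.4.6, pandas 2.3.3, scipy 1.17.1, pysam 0.24.0 and matplotlib 3.10.9 were used.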

Additional observations from a re-analysis of the deposited data

Results flagged for a closer look

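In groups of 4 libraries, 19 in all for these genes, a value was marked when its gap to the nearest other library was too large a part of the range of its dataset by Dixon's critical value at 95%, a limit that chance passes in about 1 of 20 groups. Sap30bp in P3, at 24.8 FPKM, lay apart from the other P libraries with a gap of 0.852 of the range. Sap30l in P4, at 242 FPKM, lay apart from the other P libraries with a gap of 0.853 of the range. Arid4a in P3, at 1.603 FPKM, lay apart from the other P libraries with a gap of 0.965 of the range.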

How the results depend on the processing

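The count of genes called in limma was 3, with 5 at a pseudocount of 0.1, 5 above a mean of 1 FPKM, 0 without a filter, 0 with quantile normalization, 0 with median centring, and 0 to 5 when 1 library was left out (0 without any NP library or P3). Voom on recovered reads called 108 of 6298 genes with annotated lengths (1 higher in P) and 250 of 14291 with searched lengths added (2 higher in P), and each called 1 member, Sap30bp, at −2.50. The cause of this difference was not tested. With the replicate block 1 gene was called and the adjusted p of Sap30bp was 0.183. Correlations of same-numbered libraries were 0.139, 0.0518, 0.251 and 0.155 over 11374 genes, and −0.135 to 0.136 for other numbers. All same-numbered values were positive, but that of NP2 and P2 lay within the range of the other numbers. The numbers were not taken as pairs in the main tests, which therefore leave the shared profiles unused. The median of the members was 0.60 with median centring, −2.32 in voom with annotated lengths, where it is the value of Arid4a among 5 members, −0.52 in voom with all 9 members (all genes −0.89), and −0.63 to −0.17 when 1 library was left out. Members without overlap numbered 0 with median centring and 1 to 2 when 1 library was left out, Arid4a joining without P3 and Sap30l without P4. The share over all genes was not counted in these settings. The 5.92% holds for all 8 libraries, and separation is easier to reach with fewer, so the rise to 2 has no reference. Reversed signs were seen with median centring for Sin3a (0.62), Sin3b (0.77), Sap18 (0.60), Sap130 (0.56), Suds3 (0.24) and Arid4a (0.75), and with quantile normalization for Sap130 (0.21) and Arid4a (0.32). When 1 library was left out, the fold change ranged from −0.36 to 0.58 for Sap30, −0.73 to 0.19 for Sap18, −0.93 to 0.026 (without P1) for Sap130, −0.75 to 0.25 for Sin3a and −0.53 to 0.032 (without P2) for Sin3b. It ranged from −3.60 to −1.41 for Sap30l, −1.08 to −0.43 for Suds3 and −0.54 to −0.08 for Arid4a. Leaving out 1 library, the paralog differences ranged from −3.73 to −1.88 for Sap30l minus Sap30 and −0.69 to 0.22 for Sin3a minus Sin3b. Within replicate numbers, as a replicate block, the sign-flip p was 0.125 for Sap30l minus Sap30 and 0.875 for Sin3a minus Sin3b. Sap30bp and Sap30l kept a negative sign in each of their alternatives, and the 3 lists had 0 genes called in each leave-one-out fit. Low read numbers limit Arid4a, Arid4b and the P2 and P3 values of Sap30l.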
